A study of Mus musculus with 6 samples.

Results

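Deoxynucleotide supply and salvage were followed through 10 genes in mouse embryonic fibroblasts (MEFs) after acute knockdown of Yme1l, the gene of the i-AAA protease of the mitochondrial inner membrane. The genes were taken by name from the table of read counts, in which each of the 10 had 1 row of its own among 51499 loci, by a rule that used names and no values. The rule separates them into 5 cytosolic enzymes of S phase (Tk1, Rrm1, Rrm2, Tyms and Dctd), 4 enzymes of mitochondrial or constitutive salvage (Tk2, Dguok, Dck and Rrm2b) and Cmpk2. Poly-A RNA was sequenced from wild-type (WT) MEFs that the labels call 3T3 immortalised, collected 72 h after transfection with either a scrambled siRNA (Scr) or Yme1l siRNA, in 3 independent cultures each. Total counts ranged from 37260605 to 45205207 per library. The methods trace WT MEFs to individual clones of cells with loxP-flanked Yme1l alleles that were immortalised with SV40 large T antigen, so the route of immortalisation differs between the sources, and all cultures may descend from 1 clone.

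A dividing cell makes deoxynucleotides mainly in the cytosol. Ribonucleotide reductase, a complex of the large subunit RRM1 with the small subunit RRM2, reduces ribonucleotides, DCTD and thymidylate synthase (TYMS) lead to thymidylate, and thymidine kinase 1 (TK1) recovers thymidine, and these activities rise when nuclear DNA is replicated. Mitochondrial DNA (mtDNA) is copied throughout the cell cycle and, outside S phase, relies on salvage by thymidine kinase 2 (TK2) and deoxyguanosine kinase (DGUOK) inside mitochondria and on P53R2, the small reductase subunit encoded by Rrm2b. CMPK2 is a mitochondrial pyrimidine nucleoside monophosphate kinase whose gene is also known as interferon-inducible.

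Because several of these genes rose together, the sequence around the transcription start is shown for Rrm1, Rrm2, Tk1, Tyms and Dck, which were among them. RefSeq promoters (GRCm38.p6, 250 bases before to 50 after each start) were matched for 9 of the 10 genes and searched on both strands for words known from S phase and interferon-regulated promoters. The printed stretch is 200 bases, 150 before and 50 after the start, 5′ to 3′ on the strand of the gene. Capitals mark CCAAT (the CCAAT box), GGGCGG (the GC box bound by Sp1 factors) and the E2F words, which are TTCCCGC or TTCGCGC or TTGCCGC or TTGGCGC, or the reverse complement of any of these. The capitals shared no base in these stretches.
Rrm1 (chr7:102441545-102441744, plus strand): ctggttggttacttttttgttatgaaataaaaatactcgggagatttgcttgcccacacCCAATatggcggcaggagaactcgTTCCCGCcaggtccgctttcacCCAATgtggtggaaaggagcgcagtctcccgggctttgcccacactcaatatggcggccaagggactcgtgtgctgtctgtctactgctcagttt
Rrm2 (chr12:24708104-24708303, plus strand): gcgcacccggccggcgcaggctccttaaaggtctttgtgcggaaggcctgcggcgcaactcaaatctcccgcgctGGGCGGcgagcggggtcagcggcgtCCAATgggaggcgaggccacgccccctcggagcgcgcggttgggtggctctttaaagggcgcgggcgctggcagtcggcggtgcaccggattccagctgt
Tk1 (chr11:117825965-117826164, minus strand): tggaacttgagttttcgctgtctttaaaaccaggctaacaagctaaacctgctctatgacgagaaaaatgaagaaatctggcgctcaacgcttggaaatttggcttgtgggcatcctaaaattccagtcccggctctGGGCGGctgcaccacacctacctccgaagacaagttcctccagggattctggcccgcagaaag
Tyms (chr5:30073576-30073775, minus strand): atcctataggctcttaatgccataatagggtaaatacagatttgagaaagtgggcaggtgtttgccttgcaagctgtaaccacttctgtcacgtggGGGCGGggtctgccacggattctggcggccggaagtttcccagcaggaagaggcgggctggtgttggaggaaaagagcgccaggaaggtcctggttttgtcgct
Dck (chr5:88764863-88765062, plus strand): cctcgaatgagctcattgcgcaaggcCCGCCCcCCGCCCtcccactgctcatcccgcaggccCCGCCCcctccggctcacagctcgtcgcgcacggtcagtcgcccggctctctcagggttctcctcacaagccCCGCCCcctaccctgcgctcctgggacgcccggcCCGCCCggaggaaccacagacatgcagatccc

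No promoter of the 9 genes held the longer E2F words TTTCCCGC, TTTCGCGC, TTTGCCGC or TTTGGCGC, which 2.26% of the 32851 RefSeq promoters contained. The shorter E2F words, searched after the longer ones had given no match and contained within them, were found in 9.57% of all promoters and matched in Rrm1 and Rrm2. The Rrm1 match lay 67 bases before the start, between both CCAAT boxes of that promoter at 91 and 45 bases before it. In Rrm2 the shorter E2F word lay 235 bases before the start, outside the stretch printed, and a CCAAT box lay 50 bases before it. CCAAT occurred in 37.4% of all promoters and GGGCGG in 35.7%. GGGCGG matched in Tk1, Rrm2, Tyms, Dctd, Tk2 and Dck, a set that includes genes that rose and Tk2, which was not called. The Dguok promoter held none of the words searched, and neither did that of Cmpk2, which rose. Dctd had several promoter entries, of which 1 held no word and the others held both CCAAT and GGGCGG. These matches describe letters only and are not binding sites.

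The Cmpk2 start is shown with that of its neighbour Rsad2, which encodes the antiviral enzyme viperin and is transcribed in the opposite direction from a start 12763 bases away. Here capitals mark GAAA followed by any 2 bases and again GAAA, the core of the interferon-stimulated response element, or its reverse complement, which 3.44% of all promoters contained.
Cmpk2 (chr12:26469065-26469264, plus strand): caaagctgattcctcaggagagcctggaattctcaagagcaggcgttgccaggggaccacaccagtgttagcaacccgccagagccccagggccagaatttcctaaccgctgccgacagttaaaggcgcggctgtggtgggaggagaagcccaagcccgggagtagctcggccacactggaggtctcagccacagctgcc
Rsad2 (chr12:26456403-26456602, minus strand): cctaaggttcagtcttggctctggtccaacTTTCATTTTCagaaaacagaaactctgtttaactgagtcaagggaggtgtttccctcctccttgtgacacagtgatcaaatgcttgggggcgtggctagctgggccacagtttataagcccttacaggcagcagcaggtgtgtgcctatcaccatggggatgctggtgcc

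The Rsad2 promoter held 1 match, read on the minus strand of the gene, at 120 bases before the start. In Cmpk2 these letters were not present in the window searched.

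The targeted gene was measured first. Yme1l1 was at 170.5, 171 and 171 CPM (counts scaled to library size) in the Scr libraries and at 31.6, 23.4 and 45.0 CPM in the Yme1l siRNA libraries, a log2 fold change of −2.36 ± 0.20 (SE, adjusted p = 3.87e-05). The third Yme1l siRNA library kept the most Yme1l1 transcript. All adjusted p-values come from edgeR's quasi-likelihood test over the 14499 loci with enough counts, with Benjamini-Hochberg adjustment, and a locus was called at an adjusted p under 0.05. The knockdown moved much of the transcriptome, with 28.4% of these loci called higher and 29.6% called lower, and the middle of all loci stayed at a log2 fold change of 0.01. Of 12 fibroblast markers, 10 were tested and 9 of those were lower with 0 higher. Their summed level was 34654 to 41872 CPM in Scr and 18621 to 23179 CPM after knockdown, while Thy1 and Lum were at or near 0 in both groups. The leukocyte markers Adgre1 and Cd3e were at 0 in every library, as were the endothelial markers Emcn and Cldn5 and the epithelial markers Krt5 and Esrp1. Of the 3 endothelial markers tested, 2 were called higher, and the summed level of that list was 3.79 to 4.08 CPM in Scr and 5.68 to 7.81 CPM after knockdown. The summed epithelial markers stayed under 1 CPM, and those of leukocytes were at 139 to 162 CPM in Scr and 213 to 252 CPM after knockdown, most of it from Csf1r. Csf1r shares 873 exonic bases with Hmgxb3 on the opposite strand, and whether the counting used strand is not given. The part of these shifts in the results was not tested.

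All 10 genes passed the filter on low counts. Of these, 7 were called higher and 2 lower after Yme1l siRNA, beside the 28.4% and 29.6% of all loci, so that 9 of 10 were called in either direction beside 58% of loci. The rise was at least 2-fold in 5 of the 10 genes, beside 8.18% of loci. The Yme1l siRNA libraries all lay above the Scr libraries for 7 genes and below them for 2, beside 31.9% and 33.6% of loci, and together the groups did not overlap for 9 genes beside 65.4% of loci. All 5 S phase enzymes rose, with a median log2 fold change of 1.27, whereas the 4 constitutive enzymes split, with 1 higher, 2 lower and 1 not called and a median of −0.06. Cmpk2 rose the most. Against the grouping of the rule, Dck, placed with constitutive salvage, changed by about as much as Dctd.

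**Figure D1:**
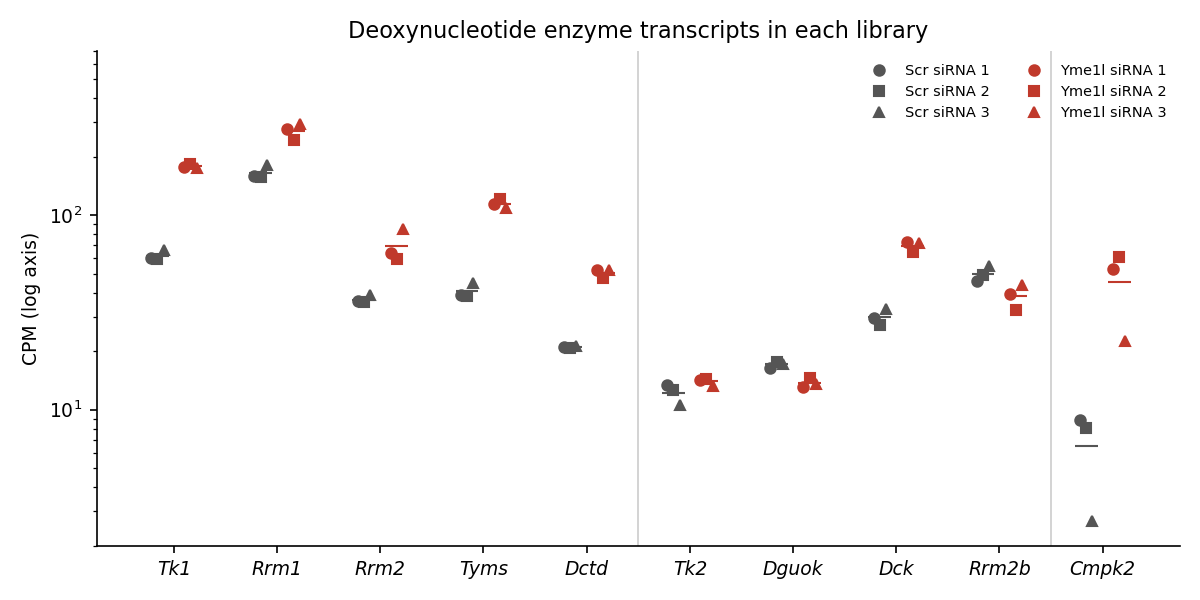
Level of each of the 10 transcripts in CPM on a log axis, with Scr libraries in grey, Yme1l siRNA libraries in red, one symbol per library number, and a bar at the group mean. From left to right stand the S phase enzymes, the constitutive salvage enzymes and Cmpk2, and the red points lie clear above the grey ones for 7 genes, clear below them for Dguok and Rrm2b, and among them for Tk2.

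Thymidylate production and thymidine recovery gave the largest changes among the S phase enzymes. Tk1 (chr11:117815526-117826092, minus strand, GRCm38) encodes the cytosolic kinase that phosphorylates thymidine. It was at 60.3, 59.7 and 66.0 CPM in the Scr libraries and at 177, 184 and 175 CPM in the Yme1l siRNA libraries. The lowest knockdown library stood 2.65-fold above the highest Scr library. The log2 fold change was 1.53 ± 0.07 (SE, adjusted p = 4.91e-06), or 2.88-fold, and 4.18% of all loci tested had a higher one. Tk1 shares 83 exonic bases with Afmid on the opposite strand, and the use of strand in the counting is not given in the sources used here. The locus that joins Afmid with other genes was at 101 to 107 CPM in Scr and 96.7 to 122 CPM after knockdown, with overlapping groups.

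Tyms (chr5:30058202-30073617, minus strand) encodes thymidylate synthase, which methylates dUMP to dTMP. Its level was 38.7, 38.5 and 44.6 CPM in Scr and 113.5, 121 and 109 CPM after knockdown. The groups were separated by a factor of 2.45, and the log2 fold change was 1.50 ± 0.08 (SE, adjusted p = 7.42e-06). A processed copy with 93.9% identity over 935 bases, Tyms-ps, had at most 10 counts in any library. Dctd (chr8:48099092-48153233, plus strand), the deaminase that turns dCMP into the dUMP used by TYMS, was at 20.9, 20.8 and 21.4 CPM in Scr and at 52.0, 47.5 and 52.4 CPM after knockdown. The Scr libraries of Dctd differed by a coefficient of variation of 1.50%, the smallest of the 10 genes. Its log2 fold change was 1.27 ± 0.07 (SE, adjusted p = 7.36e-06).

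The subunits of the S phase reductase had smaller estimates. Rrm1 (chr7:102441695-102469771, plus strand) encodes the large catalytic subunit that pairs with either small subunit. It was at 159, 156.5 and 181.5 CPM in Scr and at 278, 243 and 294 CPM after knockdown, a log2 fold change of 0.71 ± 0.10 (SE, adjusted p = 0.000330). Rrm1 was the S phase enzyme with the smallest change, and 14.1% of all loci tested rose more. Rrm2 (chr12:24708241-24714146, plus strand) encodes the small subunit that is made in S phase and destroyed at mitosis. It was at 36.2, 35.6 and 38.7 CPM in Scr and at 63.7, 59.4 and 84.7 CPM after knockdown. The third knockdown library stood above the other two, and the groups were separated by a factor of 1.54. The log2 fold change of Rrm2 was 0.91 ± 0.13 (SE, adjusted p = 0.000418), and it was 0.77 when the third library of each group was left out.

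The 95% intervals of the log2 fold changes were 1.36 to 1.69 for Tk1, 1.31 to 1.69 for Tyms and 1.11 to 1.43 for Dctd. Those of Rrm1, 0.50 to 0.93, and of Rrm2, 0.62 to 1.20, covered one another. The interval of Rrm2 also overlapped that of Dctd. In these mixed populations of cells, a larger share of cells in S phase and more transcript per cell cannot be told apart.

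**Figure D2:**
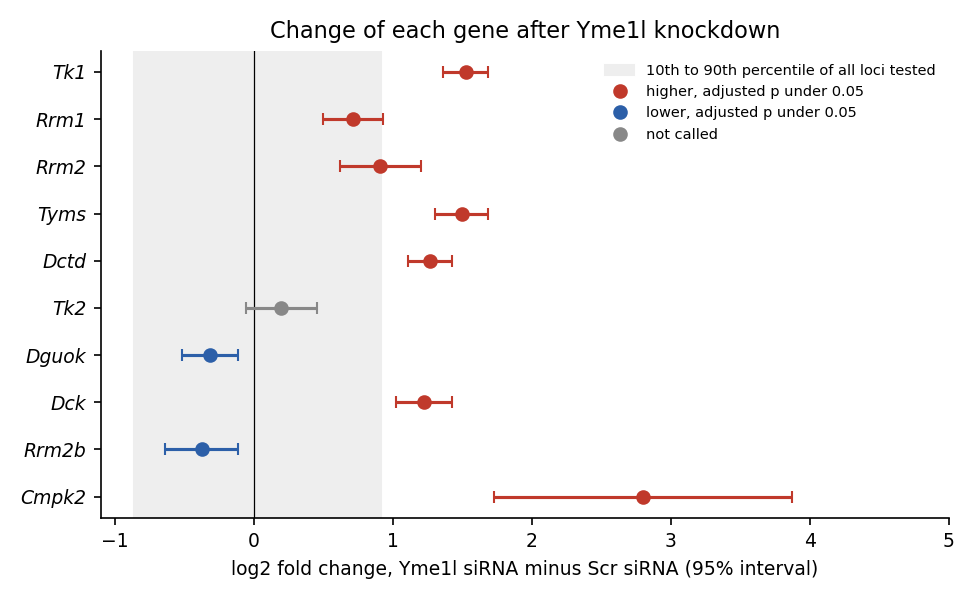
Log2 fold change of each gene (Yme1l siRNA minus Scr) with its 95% interval from the edgeR fit. Red marks genes called higher, blue genes called lower and grey the gene not called, and the shaded band spans the 10th to 90th percentile of all loci tested, from −0.86 to 0.91. The estimates of Rrm1, Rrm2, Tk2, Dguok and Rrm2b lie inside the band and those of the other 5 genes above it.

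The salvage kinases and the constitutive reductase subunit did not move as a group. Tk2 (chr8:104226685-104248558, minus strand), the mitochondrial kinase of thymidine and deoxycytidine, was at 13.4, 12.6 and 10.5 CPM in Scr and at 14.2, 14.5 and 13.3 CPM after knockdown. The groups of Tk2 overlapped, and its log2 fold change of 0.20 ± 0.11 (SE, adjusted p = 0.157) had a 95% interval from −0.06 to 0.45. The interval leaves room for a modest increase but not for one of the size of Tk1. Dguok (chr6:83480217-83506969, minus strand), the mitochondrial kinase of purine deoxynucleosides, was at 16.4, 17.6 and 17.2 CPM in Scr and at 13.0, 14.6 and 13.6 CPM after knockdown. It fell by 0.32 on the log2 scale (SE 0.09, adjusted p = 0.0136). That call was lost without the first Yme1l siRNA library (adjusted p = 0.0667).

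Rrm2b (chr15:37923952-37961318, minus strand) encodes the p53-inducible small subunit that serves quiescent cells and mtDNA. Its level was 46.0, 49.3 and 54.7 CPM in Scr and 39.4, 32.5 and 43.7 CPM after knockdown. The groups missed each other by a factor of only 1.05, and the third library was the highest in both. Rrm2b fell by 0.38 on the log2 scale (SE 0.11, adjusted p = 0.0206), a call lost without the second or the third Scr library (adjusted p = 0.0505 and 0.0693) or without the first or the second Yme1l siRNA library (adjusted p = 0.0538 and 0.0518). An antisense gene, Gm49085, shares 734 exonic bases with Rrm2b, and a processed pseudogene, Gm3362, lies inside it on the same strand with 962 to 4115 counts. Gm3362 was not called (log2 fold change 0.65, SE 0.39, adjusted p = 0.190). Gm8616, a copy with 96.1% identity to Rrm2b over 1051 bases, had at most 3 counts.

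Dck (chr5:88764996-88783281, plus strand), the cytosolic kinase of deoxycytidine and of purine deoxynucleosides, was at 29.5, 27.1 and 32.8 CPM in Scr and at 73.2, 64.3 and 71.9 CPM after knockdown. The groups stood apart by a factor of 1.96, and the log2 fold change was 1.23 ± 0.09 (SE, adjusted p = 1.82e-05). The change of Dck had a 95% interval of 1.02 to 1.43, which lay above those of Tk2, Dguok and Rrm2b and overlapped that of Dctd. No test between genes was made.

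Ratios of partner transcripts within a library put the split in 1 number each, and their change does not depend on the length assigned to either gene. Per length of merged exons, Tk1 exceeded Tk2 by 3.10-, 3.25- and 4.31-fold in the Scr libraries and by 8.57-, 8.74- and 9.05-fold after knockdown. The ratio of the cytosolic to the mitochondrial thymidine kinase transcript was thus 2.50-fold higher. The ratio of Rrm2 to Rrm2b, the S phase and the constitutive small subunit, was 2.42-fold higher, and that of Dck to Dguok was 2.92-fold higher. The ratio of Rrm2 to Rrm1 was 1.14-fold higher. For each of the 4 pairs the 3 Yme1l siRNA libraries lay above the 3 Scr libraries, for Rrm2 to Rrm1 by a small margin, from 0.906 in the highest Scr library to 0.910 in the lowest knockdown library. Because these ratios reuse the counts of the members, they carry no separate test.

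**Figure D3:**
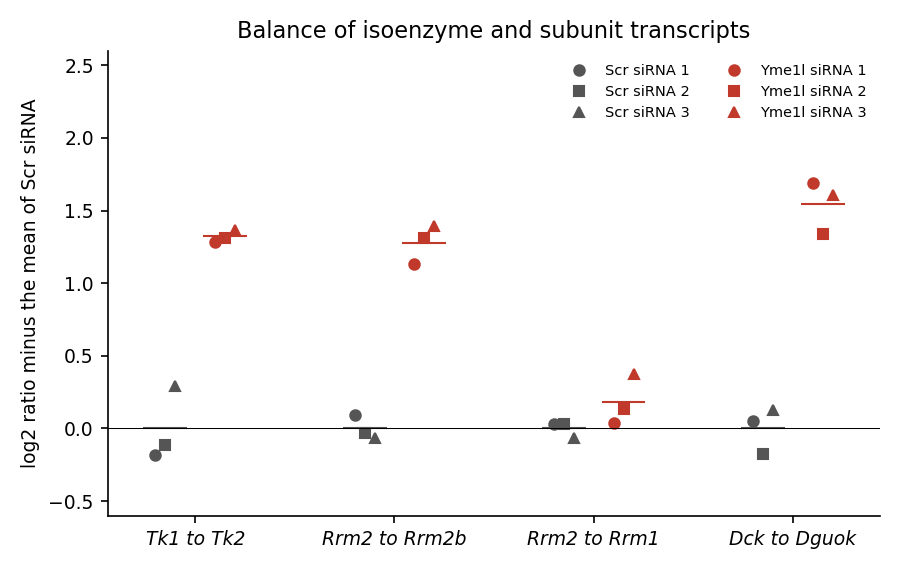
Log2 ratio of partner transcripts in each library, drawn relative to the Scr mean of each pair (grey, Scr; red, Yme1l siRNA; bars, group means; a symbol for each library number). All 3 knockdown libraries lie above all 3 Scr libraries in each of the 4 pairs, with shifts of 2.50-, 2.42-, 1.14- and 2.92-fold from left to right.

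Levels between genes can be set side by side only per length. With merged exon length, mean RPKM (CPM divided by length in kilobases) in Scr were 15.0 ± 1.26 (SD, n = 3) for Rrm1, 13.3 ± 0.58 for Rrm2 and 11.9 ± 0.68 for Tk1, followed by Dck at 7.88 ± 0.75, Tyms at 6.67 ± 0.57 and Dctd at 6.16 ± 0.09. Rrm2b at 5.47 ± 0.48, Dguok at 3.71 ± 0.14, Tk2 at 3.41 ± 0.41 and Cmpk2 at 1.57 ± 0.81 closed the order. Rrm1 and Rrm2 were separated by less than the sum of their SDs, as were Dck and Tyms, Tyms and Dctd, and Dguok and Tk2. After knockdown Tk1 led at 34.3 ± 0.88 RPKM, Rrm2 at 25.0 ± 4.90 and Rrm1 at 24.7 ± 2.38 could not be told apart, and neither could Tyms at 18.8 ± 0.98 and Dck at 18.5 ± 1.26. Dctd at 14.8 ± 0.81 and Cmpk2 at 10.9 ± 4.87 RPKM were likewise not separated, nor were Rrm2b at 4.22 ± 0.62 and Tk2 at 3.91 ± 0.17, and Dguok was lowest at 2.98 ± 0.18. The order within the group depends on the length used. The authors' FPKM, 1 pooled value a group from assembled transcripts, gave Tk1 52.7 in Scr and 152 after knockdown, and Tyms 46.7 and 149. Cmpk2 was the lowest of the 10 in Scr and Tk1 the highest after knockdown under merged exon, longest transcript and coding length and in the authors' FPKM.

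Cmpk2 (chr12:26469204-26479837, plus strand) differed from the other 9 genes both in the size of its change and in its spread. It was at 8.89, 8.04 and 2.68 CPM in Scr and at 53.1, 60.9 and 22.5 CPM after knockdown. In each group the third library was the lowest, at less than 1 part in 2 of the other libraries. Even so the groups did not overlap, the lowest knockdown library standing 2.54-fold above the highest Scr library. The log2 fold change was 2.80 ± 0.47 (SE, adjusted p = 0.00110), or 6.98-fold, and 0.993% of all loci tested had a higher one. The coefficient of variation of Cmpk2 was 51.5% in Scr and 44.5% after knockdown, whereas it was at most 12.1% and 19.6% for the other genes. Without the third library of each group the log2 fold change was 2.74.

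The interferon-stimulated genes (ISGs) showed the same order of libraries. Rsad2, the neighbour of Cmpk2 on chromosome 12 (26442746 to 26456452, minus strand), was at 26.5, 20.6 and 14.2 CPM in Scr and at 244, 275 and 86.3 CPM after knockdown. Its log2 fold change was 3.30 ± 0.42 (SE, adjusted p = 0.000264). All 10 ISGs of the list examined were called higher, beside 28.4% of all loci, with a median log2 fold change of 2.38. The groups did not overlap for 9 of them, beside 31.9% of all loci in the higher direction and 65.4% in either direction. The exception was Mx1, at 4.23, 3.44 and 1.16 CPM in Scr and 10.3, 13.4 and 3.46 CPM after knockdown. Their summed level was 252 to 580 CPM in Scr and 1065 to 2409 CPM after knockdown, with the third library the lowest in both groups. Usp18, which removes ISG15 from proteins, had a log2 fold change of 2.99 (SE 0.40, adjusted p = 0.000334) and the oligoadenylate synthetase-like gene Oasl2 one of 3.18 (SE 0.49, adjusted p = 0.000728). The knockdown library with the lowest Cmpk2 was also the one with the most Yme1l1 left, and the part of this difference in the result was not tested.

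**Figure D4:**
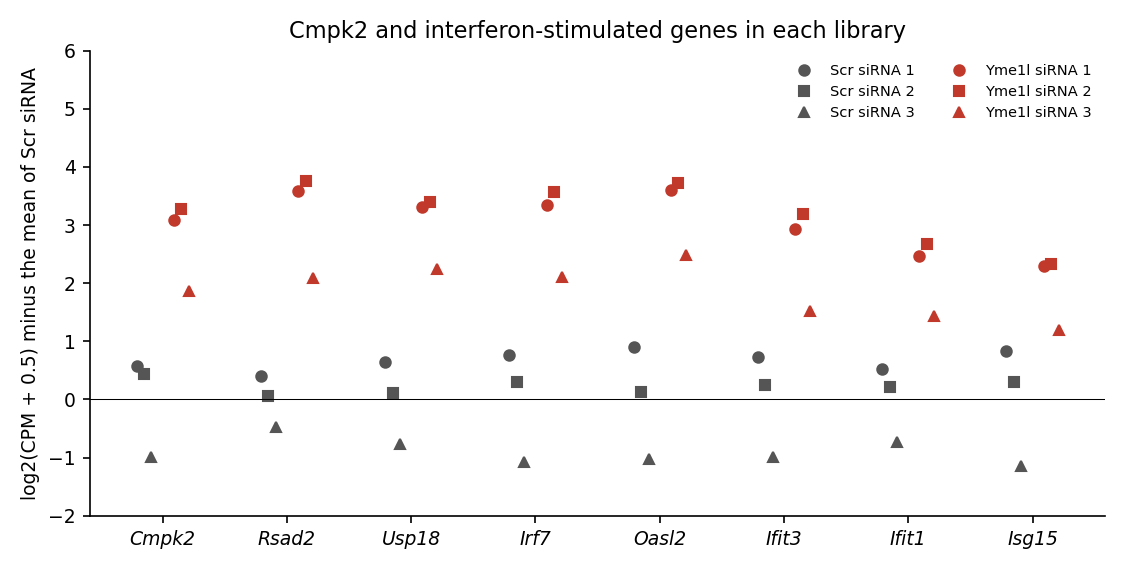
Cmpk2 and 7 interferon-stimulated genes in each library, as log2(CPM + 0.5) minus the mean of the Scr libraries (grey, Scr; red, Yme1l siRNA; circle, square and triangle, libraries 1, 2 and 3). For every gene drawn, the third library (triangle) is the lowest of its group, and all 3 knockdown libraries lie above all 3 Scr libraries.

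The enzymes around the 10 genes were read from lists of the rest of the pathway. All 5 genes of the thymidylate cycle and of dUTP removal were called higher, beside 28.4% of all loci, with a median log2 fold change of 0.97. Shmt1, which charges folate with a one-carbon unit from serine, rose by 1.36 on the log2 scale (SE 0.07, adjusted p = 7.24e-06) from 21.1 ± 1.36 to 54.4 ± 1.95 CPM (SD, n = 3). Mthfd1, a cytosolic folate enzyme, rose by 0.97 (SE 0.11, adjusted p = 0.000145). Dut, whose product removes dUTP and returns dUMP to TYMS, rose by 0.62 (SE 0.08, adjusted p = 0.000245).

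Of 12 nucleotide kinase genes at 11 loci, which act after the first phosphorylation, 4 loci were called higher and 3 lower, shares near the 28.4% and 29.6% of all loci, with a median log2 fold change of 0.15. Dtymk, which phosphorylates the dTMP made by TK1 and TYMS, rose by 0.44 on the log2 scale (SE 0.07, adjusted p = 0.00105), less than either of those genes. Cmpk1, the cytosolic counterpart of Cmpk2, fell by 0.39 (SE 0.07, adjusted p = 0.00143). Nme6, a member of the nucleoside diphosphate kinase family, rose by 1.37 (SE 0.10, adjusted p = 1.54e-05), from 6.95 ± 0.44 to 18.0 ± 0.49 CPM (SD, n = 3). Nme1 and Nme2 were counted as 1 joined locus and could not be separated.

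In nucleoside catabolism and deamination, 4 of 7 loci were called higher and 1 lower, beside 28.4% and 29.6% of all loci, with a median log2 fold change of 0.47. The one that fell was Cda, cytidine deaminase, which was at 48.9, 54.1 and 44.5 CPM in Scr and at 22.3, 24.3 and 26.3 CPM after knockdown (log2 fold change −1.02, SE 0.10, adjusted p = 5.46e-05). Dera, deoxyribose-phosphate aldolase, rose by 0.57 (SE 0.08, adjusted p = 0.000530), and the joined locus of Tymp, thymidine phosphorylase, and Sco2 rose by 0.69 (SE 0.10, adjusted p = 0.000631). Among hydrolases and nucleotidases, 5 of 11 were called higher and 3 lower, the latter a share near the 29.6% of all loci, with a median of 0.24. Dctpp1, a pyrophosphatase of dCTP, rose by 1.26 (SE 0.10, adjusted p = 3.18e-05), from 12.3 ± 1.42 to 29.4 ± 1.85 CPM (SD, n = 3). Itpa, which removes deaminated purine nucleotides, rose by 0.53 (SE 0.07, adjusted p = 0.000374) and the nucleotidase gene Nt5c3b by 0.47 (SE 0.07, adjusted p = 0.000573). Samhd1, the dNTP triphosphohydrolase, was at 113.5, 101.5 and 99.8 CPM in Scr and at 142, 128 and 123.5 CPM after knockdown, a log2 fold change of 0.32 (SE 0.08, adjusted p = 0.0102).

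Of 7 carriers tested, 4 were called higher and 3 lower, beside 28.4% and 29.6% of all loci, with a median log2 fold change of 0.32. The mitochondrial pyrimidine nucleotide carriers moved in opposite directions. Slc25a33 was at 19.0, 19.8 and 20.8 CPM in Scr and at 25.3, 24.4 and 24.8 CPM after knockdown, a log2 fold change of 0.32 (SE 0.07, adjusted p = 0.00532). Slc25a36 was at 88.6, 87.8 and 90.9 CPM in Scr and at 49.4, 49.4 and 52.2 CPM after knockdown, and fell by 0.82 (SE 0.06, adjusted p = 2.15e-05). Slc29a2, an equilibrative nucleoside transporter of low level, rose by 1.04 (SE 0.19, adjusted p = 0.00153). Slc28a2, a concentrative nucleoside transporter, had 0, 1 and 0 counts in Scr and 51, 70 and 15 counts after knockdown. It is among the 4 carriers called higher. Because it passed the filter on low counts only through the knockdown libraries, no call in the other direction was possible. With so few counts in Scr no fold change is given for Slc28a2.

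Programmes to which some of the 10 genes are known to belong were read in the same way. Of 20 G1/S genes of the E2F programme tested, 19 were called higher and 0 lower, beside 28.4% and 29.6% of all loci. Their median log2 fold change was 0.83, beside 1.27 for the 5 S phase enzymes. Ccne2 and Ccne1, the E cyclins that start S phase, rose by 1.73 (SE 0.10, adjusted p = 7.67e-06) and 1.30 (SE 0.08, adjusted p = 8.68e-06). E2f8, a repressor of the E2F family, rose by 1.29 (SE 0.09, adjusted p = 1.34e-05), while E2f1 was not called at 0.07 (SE 0.06, adjusted p = 0.337). Cdt1 and Gins2 were not analysed here, and the G1/S and thymidylate lists share 1 gene.

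Of 16 G2/M genes, 10 were called higher and 0 lower, beside 28.4% and 29.6% of all loci, with a median log2 fold change of 0.57. Among them Mki67, the proliferation marker, rose by 1.02 (SE 0.13, adjusted p = 0.000297), the spindle checkpoint kinase Bub1 by 0.69 (SE 0.10, adjusted p = 0.000615) and Cdk1, the mitotic kinase, by 0.58 (SE 0.08, adjusted p = 0.000281). The level of the G1/S list summed over genes was 1795 to 1928 CPM in Scr and 2864 to 3078 CPM after knockdown, and that of the G2/M list 1647 to 2125 and 2524 to 2881 CPM. These lists thus moved with the S phase enzymes and Dck, and their part in the result was not tested.

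The list of p53 targets, to which Rrm2b is known to belong, had 4 of 14 called higher and 6 lower, beside 28.4% and 29.6% of all loci, and a median log2 fold change of −0.16. Ei24 fell by 2.25 (SE 0.12, adjusted p = 7.15e-06), Trp53inp1 fell by 2.13 (SE 0.14, adjusted p = 1.16e-05) and Sesn1, a sestrin, fell by 0.84 (SE 0.07, adjusted p = 4.33e-05). The decrease of Rrm2b, 0.38 on the same scale, was smaller than each of these.

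**Figure D5:**
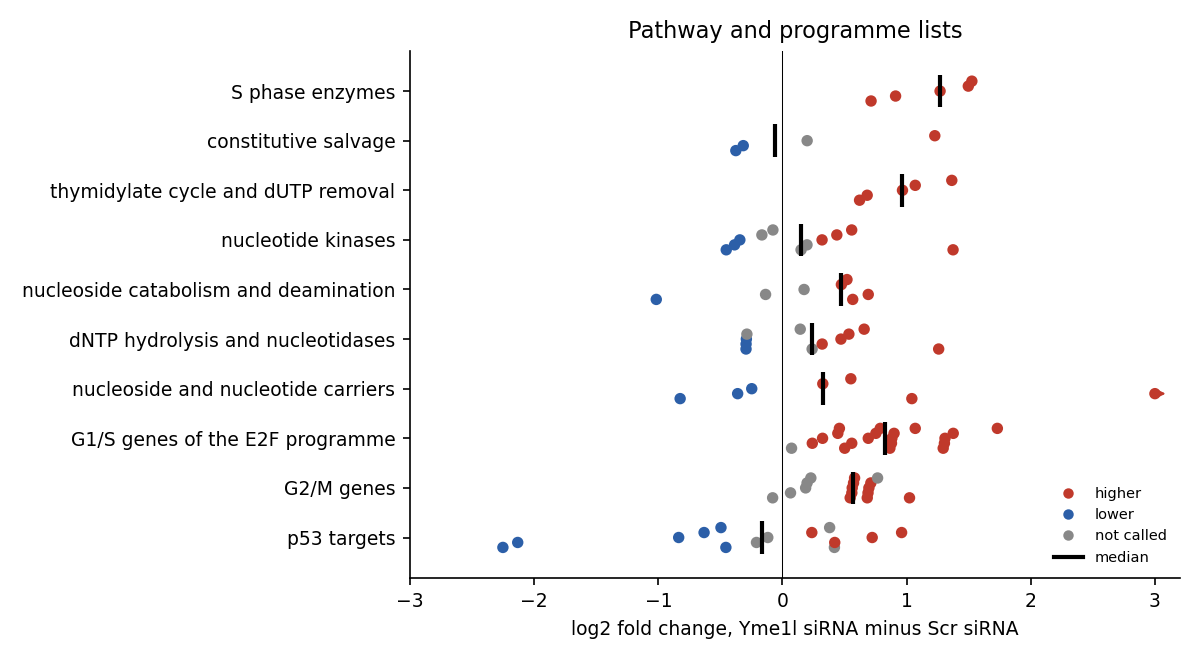
Log2 fold change (Yme1l siRNA minus Scr) of each locus tested, by list, with red for loci called higher, blue for lower, grey for not called and a black line at the list median. Every locus of the S phase, thymidylate and G1/S lists lies to the right of 0, at medians of 1.27, 0.97 and 0.83, the G2/M list has a median of 0.57 and a lowest value of −0.08, the other lists drawn spread over both sides, and the carrier Slc28a2, almost without counts in Scr, is drawn at the right edge with an arrow.

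The loci whose levels followed 3 of the genes most closely over the 6 libraries were also read, as a description over points that share 2 groups. Among 11543 loci, the highest Pearson correlations of log2 CPM with Cmpk2 were those of the nucleoside transporter gene Slc29a1, of Mesd and of Arih2. Slc29a1 reached r = 0.999 although its log2 fold change was 0.55, since its levels of 163, 160 and 134 CPM in Scr and 232, 242 and 196 CPM after knockdown are likewise lowest in the third library of each group. For Rrm2 they were Pnn, Psmd12 and D3Ertd751e, with r = 0.998 for the first. For Rrm2b they were Nek4, Ccdc191 and Mid1ip1, with r = 0.996 for the first. With 6 libraries in 2 groups such values are common: 479, 639 and 233 loci had r above 0.95 with Cmpk2, Rrm2 and Rrm2b.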

How the data were processed

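Per the submitters' processing notes and the methods, the authors mapped paired-end reads of stranded poly-A libraries to GRCm38 with HISAT2 2.0.4, assembled transcripts with StringTie 1.3.3 and compared groups with Cuffdiff 2.2.1. They deposited raw counts per locus, unnormalized. The program that counted is not given in the sources used here. They also deposited FPKM values, 1 per group, which were used for levels only. The authors' columns of fold changes and p-values were not used.

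From the deposited counts, edgeR 4.0.16 (R 4.3.3) fitted all 6 libraries with TMM scaling and a quasi-likelihood test. Loci were kept with about 10 counts in at least as many libraries as 1 group holds, and 15 in all. This left 14499 of 51499 loci, and a locus could pass through 1 group alone. No covariate was used, and p-values were Benjamini-Hochberg adjusted over all loci tested. Groups came from the labels, and replicates are independent cultures. Replicates differed beyond sampling noise. CPM used TMM-scaled library sizes, and RPKM divided them by merged exon length (GENCODE M21). Near-identical copies were sought with BLAST 2.17.0. Where genes of a locus were joined, their counts could not be divided. On simulated data with 200 loci changed 2-fold among 14499, edgeR recovered 184, with 13 false calls. The simulation gave all loci the same dispersion, and in the data 58% of loci were called. These rates therefore need not hold for the data. DESeq2 1.42.0 and limma-voom (limma 3.58.1), other scale factors, filters and thresholds, a replicate block and omission of each library were tried as alternatives.

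The genes named were the members, Yme1l1, the 3 genes with the smallest adjusted p of each list, the 3 loci most correlated with Cmpk2, Rrm2 and Rrm2b, and Rsad2, Samhd1, Slc25a33 and Dut. Some genes that the rule or the lists hold are counted but not reported by name here. E2f1, Csf1r, Mx1, marker genes at 0, the joined Nme1 and Nme2, and neighbouring or similar genes were named after their values were seen. The members and lists were chosen with earlier results of these data known.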

Additional observations from a re-analysis of the deposited data

How the results depend on the processing

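Over 17 alternatives, each of the 10 genes kept its direction, and Tk1, Rrm1, Rrm2, Tyms, Dctd, Dck and Cmpk2 stayed called higher. Tk2 was not called under any of them (adjusted p from 0.0583 to 0.415). The decreases were less stable. Dguok and Rrm2b were called lower under the other scale factors, DESeq2, limma-voom and other filters, but leaving out single libraries left 0 to 2 genes called lower, and an adjusted p under 0.01 left 0, as follows from the stricter threshold. With library totals in place of TMM, the median log2 fold change of the S phase enzymes was 1.33 and that of the constitutive enzymes turned from −0.06 to 0.0078, and all loci shifted by 0.06.

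Per-length ratios within a group depend on the length by construction. With the longest transcript, the log2 ratios in Scr and after knockdown were 2.31 and 3.63 for Tk1 to Tk2, 0.62 and 1.90 for Rrm2 to Rrm2b, −0.85 and −0.66 for Rrm2 to Rrm1, and 0.47 and 2.01 for Dck to Dguok. With coding length they were 2.57 and 3.89, −0.59 and 0.69, −1.14 and −0.96, and 0.89 and 2.44. With merged exons they had been 1.81 and 3.13, 1.28 and 2.56, −0.18 and 0.01, and 1.09 and 2.63. Only Rrm2 to Rrm2b in Scr and Rrm2 to Rrm1 after knockdown changed sign with the length.

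Over all loci tested, same-numbered libraries correlated weakly in their deviations (r = 0.04, 0.12 and 0.19), and nothing in the labels pairs them. With the replicate number as a block, 4227 loci were called higher and 4460 lower, and 7 and 2 of the 10 genes, with no call changed among them. For Cmpk2, lowest in the third library of each group, the adjusted p of edgeR's test was 7.64e-06 with the block and 0.00110 without. Omission of the third library of each group, an alternative chosen after seeing the data, changed no call among the 10 genes either. With 3 libraries a group, changes of the size of that of Tk2 lay within the error.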
